A study of Homo sapiens with 20 samples.

Results

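The genes described here supply amino acids to the cell and charge them onto tRNA. They comprise 40 genes that are linked to the transcription factor ATF4, chosen as a list of symbols and matched to the deposited tables by Ensembl identifier, and they make up 40 of the 58233 genes counted in the series. Symbols are given in the older form of the list, in which *AARS* is now *AARS1*, *CARS* is *CARS1*, and so on for the tRNA synthetases. The 40 genes fall into 6 branches: serine, glycine and folate enzymes (5 genes), asparagine, proline, alanine and aspartate enzymes (5), cysteine and glutathione genes (3), amino acid transporters (8), regulators and secreted factors (7), and cytosolic tRNA synthetases (12).

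ATF4 is the effector of the integrated stress response. When a kinase such as PKR, which binds double-stranded RNA, or GCN2, which senses uncharged tRNA, phosphorylates eIF2α, most translation slows while *ATF4* mRNA is translated better. ATF4 dimerizes with C/EBP factors and binds composite elements in genes for amino acid synthesis, import and tRNA charging, as well as in genes for other stress regulators. ADAR1, the product of *ADAR*, edits adenosine to inosine in double-stranded RNA and limits the recognition of the cell's own RNA by such sensors.

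The study asked what follows when *ADAR* is lost in lung cancer cell lines that need it and in A549 cells, which tolerate its loss until interferon is added. Gene counts from RNA sequencing were deposited for 20 libraries in 10 groups, with 2 libraries per group that differ in the sgRNA (sg1 and sg2). HCC366 (labelled lung adenosquamous carcinoma), NCI-H1650 (lung adenocarcinoma) and NCI-H196 (variant small cell lung cancer) were untreated and are called the ADAR1-dependent lines below. They were transduced with lentivirus for Cas9 and an sgRNA against *ADAR* (ADAR KO) or against *GFP*, which has no target in these cells, so that the control cells carry Cas9 as well, and RNA was taken several days later. A549 cells (lung adenocarcinoma) with the same targets were given IFN-β (10 ng/mL, 24 h) or water as vehicle. The sources used here do not say whether clones were isolated or whether the libraries of a group came from separate cultures. The p values therefore measure at most the spread between 2 sgRNAs.

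Reads on genes ranged from 62679 to 19520189 per library, with a median of 6411279. The NCI-H196 GFP sg2 library was the shallowest, and 1 read there equals 14.7 CPM (counts as a share of the library, scaled by TMM within each cell line). The other NCI-H196 libraries had 9156750 (GFP sg1), 1026443 (ADAR sg1) and 8426906 reads (ADAR sg2). With such unequal depth, p values in this line measure the spread between sgRNAs poorly. Values of its GFP sg2 library carry counting error beyond 1 read, also where groups are said below not to overlap. The HCC366 ADAR sg2 library also stood apart: 85.6% of its alignments were not unique, and gene GC content and length accounted for 51.6% of the variance of its deviation from the other libraries of the line, against 0.191 to 35.5% in the other 19. The targeted gene, *ADAR*, lay lower with either *ADAR* sgRNA than with either *GFP* sgRNA in every line and treatment, from -1.29 on the log2 scale in NCI-H1650 to -0.41 in NCI-H196, and passed the test everywhere except in HCC366 (log2 fold change -0.84 ± 0.309, adjusted p = 0.208). The epithelial keratin *KRT8* was high in A549, HCC366 and NCI-H1650, with means of 1989, 1848 and 2764 CPM in GFP libraries, and low in NCI-H196 at 37.9 CPM. The neuroendocrine markers *INSM1* and *NEUROD1* had no reads in the GFP libraries of NCI-H196, and the squamous marker *KRT5* averaged 0.387 CPM in those of HCC366, so these markers did not show the tumour types that the labels give for those 2 lines. The leukocyte markers *PTPRC*, *CD3E* and *CD68* averaged under 1 CPM in every GFP group.

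Promoter sequences of the members are shown for the element that ATF4 and C/EBP factors share and for interferon elements. RefSeq promoters (GRCh38.p14) were found for 31 of the 40 members, with 44 start sites, and the 250 bases upstream of each start were searched on both strands. The letters TGATGNAA, the core of the C/EBP-ATF response element, were in 8 of the 44 member promoters (8 members), while 3.14% of all 35116 RefSeq promoters held them. The windows below are written 5′ to 3′ on the strand of the gene, with the element in capitals. Where it lies on the opposite strand, it reads as TTNCATCA. The first 3 belong to enzyme genes described in full below, those of *FGF21* and *AARS* to a hormone gene and a synthetase gene, and the last 3 to further members with the element.

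*ASNS*, chr7:97872443-97872502, minus strand: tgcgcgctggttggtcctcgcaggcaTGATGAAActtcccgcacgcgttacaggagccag
*GOT1*, chr10:99430789-99430848, minus strand: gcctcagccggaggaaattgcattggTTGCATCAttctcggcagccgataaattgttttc
*CHAC1*, chr15:40953236-40953295, plus strand: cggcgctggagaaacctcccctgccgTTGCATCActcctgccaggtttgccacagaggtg
*FGF21*, chr19:48755444-48755503, plus strand: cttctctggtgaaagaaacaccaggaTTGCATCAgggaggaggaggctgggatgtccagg
*AARS*, chr16:70289660-70289719, minus strand: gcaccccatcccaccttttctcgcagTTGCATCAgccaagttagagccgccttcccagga
*GARS*, chr7:30594834-30594863, plus strand: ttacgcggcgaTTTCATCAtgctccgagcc
*IARS*, chr9:92293698-92293727, minus strand: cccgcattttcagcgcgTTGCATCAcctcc
*SLC1A5*, chr19:46784893-46784922, minus strand: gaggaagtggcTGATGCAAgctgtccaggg

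The first base of the element lies 68 bases upstream of the start shown in *ASNS*, 198 in *GOT1*, 209 in *CHAC1*, 54 in *FGF21* and 187 in *AARS*. For *ASNS*, *SLC1A5* and *GARS* it was found at a single one of several start sites. The core of the interferon-stimulated response element was in 1 member promoter, against 3.02% of all promoters. That promoter belongs to *WARS*, at the second of its start sites, and it also held TTCNNNGAA, the core of the gamma-activated site. These letters were in 5 of the 44 member promoters (those of *WARS*, *SLC3A2* and *TARS*), while 6.57% of all promoters contain them.

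*WARS*, chr14:100375383-100375412, minus strand: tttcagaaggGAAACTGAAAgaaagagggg
*WARS*, chr14:100375470-100375499, minus strand: gctcaagtgtTTCTGAGAAtctgggtgatt

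None of the 3 motifs was found in this window of *SESN2*, *CARS*, *DDIT4*, *STC2*, *PHGDH* or *SLC38A2*, which says only that these letters are not in the stretch searched.

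Members of all 6 branches rose after ADAR KO in at least 1 setting. The regulators *SESN2* and *DDIT4* and the enzymes *CHAC1*, *GOT1* and *ASNS* rose in 3 or 4 settings, while *PSAT1*, *MTHFD2*, *LARS* and *NARS* passed in none. In NCI-H1650 cells 14 of the 39 members tested rose and none fell (edgeR's quasi-likelihood test, Benjamini-Hochberg adjusted p under 0.05), where 6.18% of all genes rose and 2.42% fell. In NCI-H196 cells 22 of 40 rose and *VLDLR* fell, with 10.3% of all genes rising and 7.5% falling. In HCC366 cells 3 of 36 rose and none fell, against 1.2% of all genes that rose and 0.0449% that fell. In A549 cells none of 39 passed after ADAR KO with vehicle, where 0.0324% of all genes rose and 0.0906% fell. There 1 member had an unadjusted p under 0.05 in edgeR and DESeq2 called 0 of 38. With IFN-β 13 of 39 rose and none fell, against 10.8% of all genes that rose and 6.19% that fell.

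The median log2 fold change of the members was 0.88 in HCC366, 0.30 in NCI-H196, 0.23 in NCI-H1650, 0.05 in A549 with vehicle and 0.22 in A549 with IFN-β, whereas the median over all genes tested lay between -0.01 and 0.01 in each of them. Both ADAR libraries were above both GFP libraries for 26 of 36 members in HCC366, 30 of 40 in NCI-H196, 25 of 39 in NCI-H1650, 11 of 39 in A549 with vehicle and 22 of 39 in A549 with IFN-β. The share of all genes with this order was 25.1, 25.6, 26.2, 18.8 and 28.2%, respectively. The epithelial markers *KRT8* (-0.48), *KRT18* (-0.44) and *CDH1* (-0.74) fell along with these rises in A549 cells with IFN-β, and their part in the result was not tested. With vehicle, where no member passed, *CDH1* had a log2 fold change of -0.72 (adjusted p = 0.258), *KRT8* -0.19 and *KRT18* -0.16. In NCI-H196 the squamous marker *TP63* passed as higher (log2 fold change 0.93 ± 0.193, adjusted p = 4.28e-05), at 15.7 and 58.6 CPM (GFP) and 23.3 and 32.2 CPM (ADAR), so that its groups overlapped. The 58.6 CPM of GFP sg2 rest on 4 reads. No other marker gene passed after ADAR KO. In bulk libraries fewer cells of a type and less RNA per cell cannot be told apart.

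**Figure D1:**
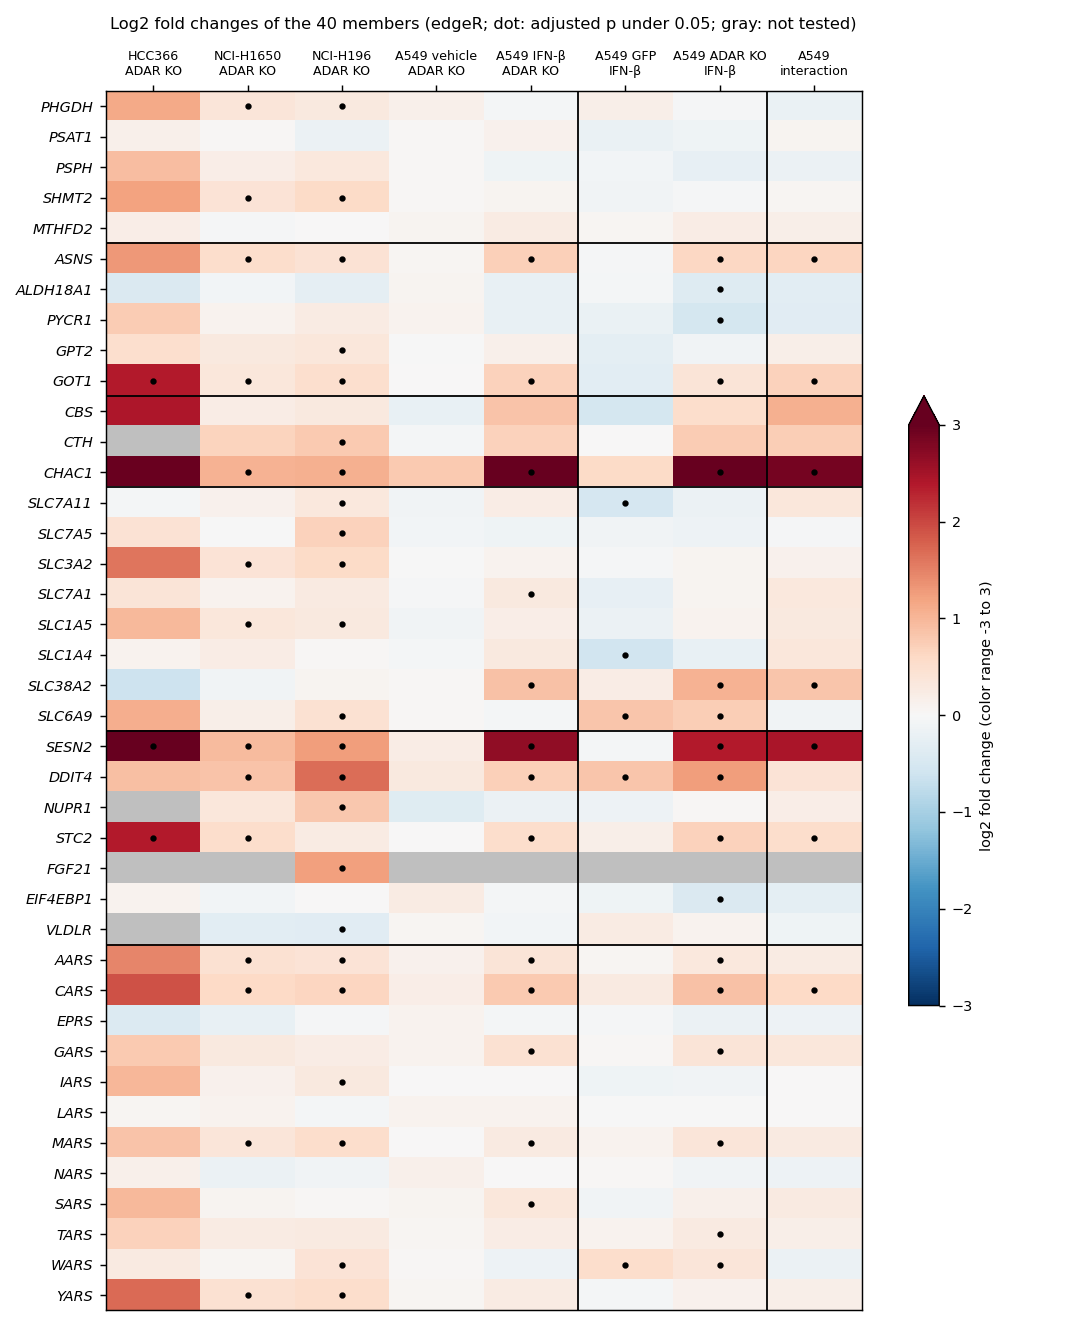
Log2 fold changes of the 40 members (rows, grouped by branch) in 8 comparisons (columns), from blue (lower) through white to red (higher), with the color scale capped at its ends. Black dots mark an adjusted p under 0.05 and gray cells were not tested; the A549 vehicle column holds no dot, while *SESN2* and *GOT1* carry one in each of the other 4 ADAR KO columns.

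Over the 4 settings with a response (the 3 ADAR1-dependent lines and A549 with IFN-β), *SESN2* and *GOT1* rose in all 4. A further 7 members rose in 3 of them, namely *ASNS*, *CHAC1*, *DDIT4*, *STC2*, *AARS*, *CARS* and *MARS*. Another 5 rose in 2, 13 rose in 1 and 13 rose in none. The share of all genes that rose in as many settings was not counted, so this recurrence cannot be set against other genes. In the common fit of the 12 libraries from the ADAR1-dependent lines, 14 of 40 members rose and none fell. Of all genes, 4.28% rose and 1.02% fell in that fit. The 14 were the 9 members just named and *PHGDH*, *SHMT2*, *SLC3A2*, *FGF21* and *YARS*. *FGF21* did not pass the filter on low counts within HCC366 or NCI-H1650, so its call rests on NCI-H196 and is not a common effect. The count was 7 without HCC366 GFP sg1 and 9 without HCC366 GFP sg2. Without the shallow NCI-H196 GFP sg2 library 10 of these 14 remained, and *PHGDH*, *GOT1*, *STC2* and *FGF21* no longer passed. Without HCC366 ADAR sg2 all 14 remained and 20 members passed.

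Values without the 2 libraries that stood apart, and without the others of their lines, were as follows. When ADAR sg2 was left out, 17 members passed in HCC366, with *ASNS* at 1.39 (adjusted p = 4.32e-10), *SHMT2* at 0.98, *SLC3A2* at 1.07 and *CARS* at 1.38. These values rest on the lone ADAR sg1 library, which is assumed to vary like the GFP pair. Of all genes tested, 9.41% passed in that fit. Without ADAR sg1, 24 members passed as higher and 3 as lower, in a fit where 52% of all genes passed. Conversely, leaving out GFP sg1 kept *SESN2* alone, and leaving out GFP sg2 kept no member. In NCI-H196 the fit without GFP sg2 called all 23 members again together with *ALDH18A1*, *SLC7A1* and *TARS*. Without GFP sg1, ADAR sg1 or ADAR sg2, in contrast, 6, 4 and 2 members passed. The NCI-H196 calls of *PHGDH*, *SLC1A5*, *IARS* and *WARS* were kept by 2 of 10 alternative analyses and those of *GPT2* and *VLDLR* by 2 of 9. In NCI-H1650 the count of 14 became 8 without GFP sg1 and 4 without GFP sg2, namely *CHAC1*, *DDIT4*, *SESN2* and *STC2*. In A549 with IFN-β the count of 13 became 8 without ADAR sg2 with IFN-β. DESeq2, which gave an adjusted p for 26 members in NCI-H196, called *SESN2* alone there, and 0.478% of all genes. In each fit of these single lines where fewer members passed than with all libraries, a smaller share of all genes passed too. Such drops are therefore not particular to the members.

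Of the 7 regulators and secreted factors, 4 rose and 1 fell in NCI-H196, while 3 rose in NCI-H1650, 3 in A549 with IFN-β and 2 in HCC366. *SESN2* (ENSG00000130766, chromosome 1, 28586029 to 28609002 on GRCh37, as for all gene positions below) encodes sestrin 2, a leucine-binding inhibitor of mTORC1 signalling. In HCC366, *SESN2* stood at 26.3 and 19.5 CPM in the GFP sg1 and sg2 libraries and at 173 and 540.0 CPM in the ADAR sg1 and sg2 libraries (log2 fold change 3.98 ± 0.569, adjusted p = 0.0272). For log2 fold changes and log2 differences, ± is a standard error worked back from the F statistic of edgeR's test. NCI-H1650 cells had 84.5 and 67.1 CPM in GFP and 135 and 158 CPM in ADAR libraries (log2 fold change 0.95 ± 0.118, adjusted p = 2.22e-08), and NCI-H196 cells had 153 and 103 CPM (GFP) and 333 and 376 CPM (ADAR; log2 fold change 1.25 ± 0.108, adjusted p = 4.56e-28). The ADAR and GFP libraries did not overlap in any of the 3 lines. In vehicle-treated A549 cells *SESN2* was low throughout, at 7.79 and 8.37 CPM in GFP and 9.02 and 9.76 CPM in ADAR libraries (log2 fold change 0.21 ± 0.226, adjusted p = 0.998). With IFN-β it was 6.28 and 9.004 CPM in GFP and 40.6 and 56.5 CPM in ADAR libraries (log2 fold change 2.65 ± 0.197, adjusted p = 2.01e-11), so both ADAR libraries with IFN-β were above the other 6 A549 libraries. The effect of ADAR KO on *SESN2* differed among the 3 ADAR1-dependent lines (adjusted p = 0.00839), with the largest log2 fold change in HCC366. Among all members 3 passed this test, *SESN2*, *GOT1* and *STC2*, with 0.701% of all genes. The count was 0 without HCC366 GFP sg2 or NCI-H196 GFP sg1, 1 or 2 without any 1 of 7 other libraries, 3 without NCI-H196 GFP sg2, 7 without HCC366 ADAR sg2 (2.71% of all genes) and 21 without HCC366 ADAR sg1 (25.9% of all genes).

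*DDIT4* (ENSG00000168209, chromosome 10, 74033678 to 74035794) encodes REDD1, another brake on mTORC1. In HCC366 it had 48.03 and 50.7 CPM in GFP and 46.4 and 138 CPM in ADAR libraries (log2 fold change 0.91 ± 0.49, adjusted p = 0.351). ADAR sg2 alone was high there, and ADAR sg1 lay below both GFP libraries. In NCI-H1650 the values were 70.3 and 72.8 CPM (GFP) and 138 and 122 CPM (ADAR; log2 fold change 0.87 ± 0.115, adjusted p = 1.18e-07). In NCI-H196 they were 24.6 CPM and no read in the GFP libraries and 89.3 and 75.02 CPM in the ADAR libraries (log2 fold change 1.68 ± 0.156, adjusted p = 2.47e-24). A count of 0 in the shallow GFP sg2 library allows up to 3 reads, or 43.97 CPM, counting error only, which is still under both ADAR values. A549 cells with vehicle had 65.1 and 56.2 CPM in GFP and 69.8 and 78.6 CPM in ADAR libraries (log2 fold change 0.30 ± 0.121, adjusted p = 0.998), without overlap but short of the threshold. With IFN-β the values were 99.2 and 115 CPM (GFP) and 161 and 191 CPM (ADAR; log2 fold change 0.72 ± 0.113, adjusted p = 2.79e-05), a rise on top of a higher control level.

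*STC2*, which encodes the secreted glycoprotein stanniocalcin 2, rose in HCC366 (log2 fold change 2.38 ± 0.403), NCI-H1650 (0.53 ± 0.103) and A549 with IFN-β (0.54 ± 0.104), with adjusted p values of 0.0351, 0.000226 and 0.000454. Its means were 82.7 ± 7.95 CPM (SD, n = 2) in GFP and 428 ± 201 CPM in ADAR libraries of HCC366. In NCI-H196 its log2 fold change was 0.24 ± 0.106 with an adjusted p of 0.0968. *NUPR1*, a small chromatin-associated stress protein, rose in NCI-H196 from 30.9 CPM and no read in GFP libraries to 44.7 and 55.2 CPM in ADAR libraries (log2 fold change 0.80 ± 0.158), a call that 4 of 9 alternative analyses kept, and was at or under 2 CPM in HCC366 and A549. *FGF21*, a hormone of the fasting response, was tested within a line only in NCI-H196, where it stood at 10.9 CPM and no read in GFP libraries and 24.4 and 25.6 CPM in ADAR libraries (log2 fold change 1.23 ± 0.216, adjusted p = 5.98e-07). Because 1 read of the shallow library is 14.7 CPM, the GFP levels of *NUPR1* and *FGF21* there rest on GFP sg1. *VLDLR*, a lipoprotein receptor, fell in NCI-H196 and was the single member called lower in any ADAR KO comparison, from 91.6 and 87.95 to 73.1 and 72.5 CPM (log2 fold change -0.33 ± 0.124, adjusted p = 0.0422). Its GFP sg2 value of 87.95 CPM is a few reads of 14.7 CPM each, so its GFP level there rests on GFP sg1 as well. *EIF4EBP1*, the translational repressor 4E-BP1, did not pass after ADAR KO in any setting, with log2 fold changes from -0.07 to 0.24.

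**Figure D2:**
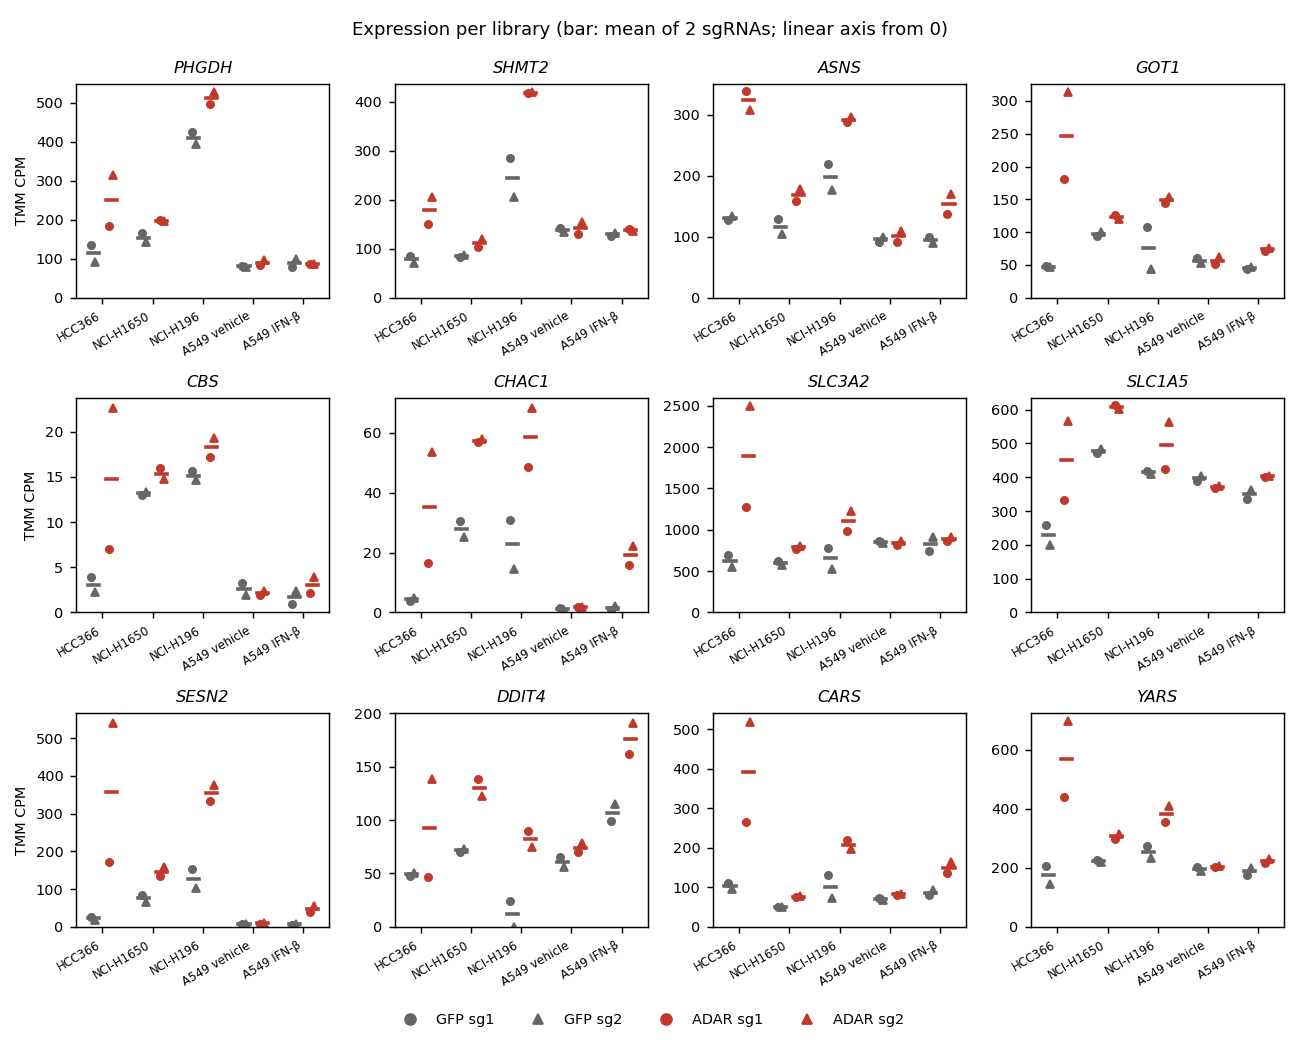
Expression of 12 members in every library (TMM CPM, linear axis from 0) for HCC366, NCI-H1650, NCI-H196 and A549 cells with vehicle or IFN-β. Gray marks are GFP and red marks ADAR libraries, circles sg1 and triangles sg2, and bars the mean of the 2 libraries; *SESN2* rises from 26.3 and 19.5 to 173 and 540.0 CPM in HCC366 and from 6.28 and 9.004 to 40.6 and 56.5 CPM in A549 with IFN-β.

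Of the 3 cysteine and glutathione genes, 2 rose in NCI-H196, 1 in NCI-H1650 and 1 in A549 with IFN-β. *CHAC1* (ENSG00000128965, chromosome 15, 41245160 to 41248710) encodes an enzyme that degrades glutathione. It had 3.87 and 4.87 CPM in GFP and 16.6 and 53.7 CPM in ADAR libraries of HCC366 (log2 fold change 2.97 ± 0.614, adjusted p = 0.0618). The corresponding values were 30.4 and 25.1 CPM (GFP) and 57.01 and 57.9 CPM (ADAR) in NCI-H1650 (log2 fold change 1.04 ± 0.145, adjusted p = 3.34e-07) and 31.003 and 14.7 CPM (GFP) and 48.7 and 68.2 CPM (ADAR) in NCI-H196 (log2 fold change 1.06 ± 0.153, adjusted p = 4.1e-10). Each ADAR library was above each GFP library in all 3 lines, and the value of GFP sg2 in NCI-H196 is a single read. A549 cells held *CHAC1* at 1.32 and 0.863 CPM (GFP) and 1.83 and 1.73 CPM (ADAR) with vehicle, and at 0.938 and 1.99 CPM (GFP) and 15.97 and 22.3 CPM (ADAR) with IFN-β (log2 fold change 3.64 ± 0.311, adjusted p = 4.08e-10). This was the largest log2 fold change of any member in A549 cells.

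*CBS* (ENSG00000160200, chromosome 21, 44473301 to 44497053), the enzyme that commits homocysteine to cysteine synthesis, was a low transcript in every line. It had 3.87 and 2.29 CPM in GFP and 6.998 and 22.6 CPM in ADAR libraries of HCC366 (log2 fold change 2.41 ± 0.658, adjusted p = 0.124), where ADAR sg2 was high. Its values were 15.6 and 14.7 CPM (GFP) and 17.3 and 19.3 CPM (ADAR) in NCI-H196, 13.01 and 13.4 CPM (GFP) and 15.97 and 14.7 CPM (ADAR) in NCI-H1650 and 0.938 and 2.36 CPM (GFP) and 2.10 and 3.91 CPM (ADAR) in A549 with IFN-β. With a log2 fold change of 0.29 ± 0.211, 0.22 ± 0.206 and 0.85 ± 0.427, it passed in none of them, and the value of GFP sg2 in NCI-H196 is again a single read. *CTH*, which releases cysteine from cystathionine, rose in NCI-H196 from 61.1 and 58.6 to 85.3 and 111 CPM (log2 fold change 0.78 ± 0.123, adjusted p = 1.56e-08) and stayed under 15 CPM elsewhere. The 58.6 CPM of GFP sg2 also rest on few reads.

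Of the 5 asparagine, proline, alanine and aspartate enzymes, 3 rose in NCI-H196, 2 in NCI-H1650, 2 in A549 with IFN-β and 1 in HCC366. The aspartate aminotransferase *GOT1* (ENSG00000120053, chromosome 10, 101156627 to 101190381) rose in all 4 responding settings. HCC366 had 48.03 and 46.4 CPM in GFP and 181 and 313 CPM in ADAR libraries (log2 fold change 2.39 ± 0.384, adjusted p = 0.0315). NCI-H1650 had 93.5 and 101 CPM (GFP) and 126 and 121 CPM (ADAR; log2 fold change 0.35 ± 0.111, adjusted p = 0.0376), a call that 1 of 10 alternative analyses kept. NCI-H196 had 108 and 43.98 CPM (GFP) and 144 and 153 CPM (ADAR; log2 fold change 0.50 ± 0.108, adjusted p = 7.4e-05), where the value of GFP sg2 is 3 reads. In A549 cells the *GOT1* groups overlapped with vehicle, at 60.7 and 52.9 CPM in GFP and 51.5 and 61.8 CPM in ADAR libraries, and separated with IFN-β, at 43.98 and 47.4 CPM (GFP) and 71.9 and 75.6 CPM (ADAR; log2 fold change 0.69 ± 0.123, adjusted p = 0.000156). Its effect differed among the ADAR1-dependent lines (adjusted p = 0.0184), as did that of *STC2* (0.042).

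*ASNS* (ENSG00000070669, chromosome 7, 97480989 to 97501854), asparagine synthetase, had 128 and 134 CPM in GFP and 339 and 308 CPM in ADAR libraries of HCC366, where its ADAR libraries were close to each other. It had 128 and 105 CPM (GFP) and 159 and 178 CPM (ADAR) in NCI-H1650 and 219 and 176 CPM (GFP) and 288 and 296 CPM (ADAR) in NCI-H196. No ADAR library overlapped a GFP library in any line, although the GFP sg2 value in NCI-H196 rests on few reads. The log2 fold changes were 1.31 ± 0.309, 0.53 ± 0.111 and 0.43 ± 0.105, with adjusted p values of 0.0879, 0.000707 and 0.000657. In A549 cells *ASNS* stood at 91.2 and 100.3 CPM in GFP and 91.2 and 109.9 CPM in ADAR libraries with vehicle, and at 99.2 and 89.4 CPM (GFP) and 137 and 170.3 CPM (ADAR) with IFN-β (log2 fold change 0.71 ± 0.117, adjusted p = 5.52e-05).

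The proline enzymes of the same branch were not called. *ALDH18A1*, which makes the proline precursor pyrroline-5-carboxylate, showed a log2 fold change of -0.42 (HCC366), -0.28 (NCI-H196), -0.07 (NCI-H1650) and -0.23 (A549 with IFN-β). *PYCR1*, which converts that intermediate to proline, had 0.76, 0.25, 0.10 and -0.23 in the same order. The alanine aminotransferase *GPT2* rose in NCI-H196 (log2 fold change 0.35 ± 0.112, adjusted p = 0.0166) and was not called elsewhere, with log2 fold changes of 0.50 ± 0.354 (HCC366) and 0.30 ± 0.112 (NCI-H1650).

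In the serine, glycine and folate branch, *PHGDH* and the mitochondrial serine hydroxymethyltransferase gene *SHMT2* rose in NCI-H1650 and NCI-H196, and the other 3 genes passed in no setting. *SHMT2* (ENSG00000182199, chromosome 12, 57623356 to 57628718) had 84.4 and 71.9 CPM in GFP and 150.5 and 206 CPM in ADAR libraries of HCC366 (log2 fold change 1.20 ± 0.342, adjusted p = 0.138). It had 82.5 and 86.9 CPM (GFP) and 104 and 119.6 CPM (ADAR) in NCI-H1650 (log2 fold change 0.40 ± 0.115, adjusted p = 0.017), and 286 and 205 CPM (GFP) and 418 and 420.0 CPM (ADAR) in NCI-H196 (log2 fold change 0.57 ± 0.106, adjusted p = 2.89e-06). The groups were apart in each line. With IFN-β, A549 cells showed 126 and 133 CPM in GFP and 140.3 and 136 CPM in ADAR libraries (log2 fold change 0.09 ± 0.104), and with vehicle 143 and 135 CPM (GFP) and 131 and 154 CPM (ADAR).

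*PHGDH* (ENSG00000092621, chromosome 1, 120191034 to 120286841), which diverts a glycolytic intermediate into serine synthesis, had 136 and 91.7 CPM in GFP and 184 and 316 CPM in ADAR libraries of HCC366 (log2 fold change 1.15 ± 0.386, adjusted p = 0.184). The values in NCI-H1650 were 165 and 144 CPM (GFP) and 198 and 197 CPM (ADAR; log2 fold change 0.36 ± 0.105, adjusted p = 0.022). Those in NCI-H196 were 425 and 396 CPM (GFP) and 496 and 527 CPM (ADAR; log2 fold change 0.29 ± 0.107, adjusted p = 0.0437). These small rises were free of overlap between groups. In NCI-H196, however, 1 read of GFP sg2 equals 14.7 CPM and the counting error of its value is several reads. The separation there therefore rests on GFP sg1. A549 cells had 81.2 and 79.7 CPM in GFP and 83.5 and 95.9 CPM in ADAR libraries with vehicle, and 78.96 and 101 CPM (GFP) and 86.9 and 87.4 CPM (ADAR) with IFN-β, where the groups overlapped. *PSAT1* and *PSPH*, which complete serine synthesis, and *MTHFD2*, a mitochondrial folate enzyme, passed in none of the settings. Their log2 fold changes ranged from -0.16 to 0.16 for *PSAT1*, from -0.14 to 0.93 for *PSPH* and from -0.04 to 0.25 for *MTHFD2*. None of the 5 genes passed in A549 with IFN-β, where the largest log2 fold change was that of *MTHFD2* (adjusted p = 0.087).

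Of the 8 transporters, 5 rose in NCI-H196, 2 in NCI-H1650 and 2 in A549 with IFN-β. *SLC3A2* (ENSG00000168003, chromosome 11, 62623476 to 62656352) encodes the heavy chain that carries *SLC7A5* and *SLC7A11* products to the cell surface. HCC366 cells had 692 and 545 CPM in GFP and 1279.8 and 2493 CPM in ADAR libraries (log2 fold change 1.61 ± 0.375, adjusted p = 0.0845). The gene stood at 622 and 569 CPM (GFP) and 770.2 and 801 CPM (ADAR) in NCI-H1650 (log2 fold change 0.40 ± 0.0993, adjusted p = 0.00525) and at 782 and 528 CPM (GFP) and 987 and 1226 CPM (ADAR) in NCI-H196 (log2 fold change 0.57 ± 0.112, adjusted p = 9.11e-06). ADAR libraries were higher than GFP libraries throughout these lines. In A549 cells with IFN-β they overlapped, at 744 and 910.1 CPM in GFP and 868 and 915 CPM in ADAR libraries, and with vehicle the values were 866 and 840.2 CPM (GFP) and 821 and 862 CPM (ADAR).

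*SLC1A5* (ENSG00000105281, chromosome 19, 47278140 to 47291851), a glutamine importer, had 259.5 and 200.3 CPM in GFP and 332 and 567 CPM in ADAR libraries of HCC366 (log2 fold change 0.97 ± 0.36, adjusted p = 0.211). It rose in NCI-H1650 from 472 and 482 to 613 and 603 CPM (log2 fold change 0.35 ± 0.0988, adjusted p = 0.0154) and in NCI-H196 from 419.7 and 410.4 to 424 and 564 CPM (log2 fold change 0.29 ± 0.106, adjusted p = 0.0424). In NCI-H196 ADAR sg1 was close to both GFP libraries, and without ADAR sg2 the log2 fold change was 0.03. There 1 read of GFP sg2 equals 14.7 CPM, more than its distance from ADAR sg1, so the groups cannot be called apart. A549 cells had 389.5 and 403 CPM in GFP and 367 and 375 CPM in ADAR libraries with vehicle, and 337 and 363 CPM (GFP) and 399.9 and 404 CPM (ADAR) with IFN-β (log2 fold change 0.20 ± 0.093, adjusted p = 0.138).

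Of the light chains that pair with SLC3A2, *SLC7A5*, which imports leucine and other large neutral amino acids, rose in NCI-H196 (log2 fold change 0.70 ± 0.114, adjusted p = 5.06e-08), and had log2 fold changes of -0.02 ± 0.107 in NCI-H1650 and -0.12 ± 0.0998 in A549 with IFN-β. *SLC7A11*, the cystine importer, rose in NCI-H196 (log2 fold change 0.33 ± 0.105, adjusted p = 0.0156), while its log2 fold changes were -0.05, 0.12 and 0.23 in HCC366, NCI-H1650 and A549 with IFN-β. *SLC6A9*, a glycine importer, rose in NCI-H196 (log2 fold change 0.45 ± 0.13, adjusted p = 0.00556). Reads of *SLC6A9* may include some of *CCDC24*, which overlaps it by 5029 bases on the opposite strand. *CCDC24* had 20.1% as many reads summed over all 20 libraries.

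*SLC38A2*, an importer of small neutral amino acids that responds to amino acid shortage, rose after ADAR KO in A549 with IFN-β (log2 fold change 0.87 ± 0.108, adjusted p = 5.31e-07). In the ADAR1-dependent lines it was not called, with log2 fold changes of -0.61 (HCC366), -0.10 (NCI-H1650) and 0.08 (NCI-H196). Its A549 libraries read 193 and 205 CPM (GFP) and 211 and 200.1 CPM (ADAR) with vehicle and 258 and 204 CPM (GFP) and 391 and 454 CPM (ADAR) with IFN-β. Both ADAR libraries with IFN-β were above all others of the line. *SLC7A1*, the cationic amino acid importer, also rose in A549 with IFN-β (log2 fold change 0.29 ± 0.0941, adjusted p = 0.029), a call that 5 of 14 alternative analyses kept. *SLC1A4*, a transporter of alanine, serine and cysteine, passed in no line after ADAR KO.

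Of the 12 cytosolic tRNA synthetases, 6 rose in NCI-H196, 4 in NCI-H1650, 5 in A549 with IFN-β and none in HCC366. *CARS* (ENSG00000110619, chromosome 11, 3022152 to 3078843), which charges cysteine, had 112 and 96.5 CPM in GFP and 266 and 519 CPM in ADAR libraries of HCC366 (log2 fold change 1.91 ± 0.392, adjusted p = 0.0596). Its NCI-H1650 values were 51.6 and 49.9 CPM (GFP) and 76.1 and 77.5 CPM (ADAR; log2 fold change 0.60 ± 0.1252, adjusted p = 0.000706), and its NCI-H196 values 131 and 73.3 CPM (GFP) and 219 and 197 CPM (ADAR; log2 fold change 0.64 ± 0.104, adjusted p = 4.38e-08). In all 3 lines the lower ADAR library exceeded the higher GFP library. In A549 cells *CARS* had 74.6 and 69.5 CPM in GFP and 81.6 and 82.8 CPM in ADAR libraries with vehicle, and 80.8 and 93.2 CPM (GFP) and 137 and 163 CPM (ADAR) with IFN-β (log2 fold change 0.79 ± 0.111, adjusted p = 4.82e-06).

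*YARS* (ENSG00000134684, chromosome 1, 33240838 to 33283632), which charges tyrosine, had 207 and 144 CPM in GFP and 441 and 696 CPM in ADAR libraries of HCC366 (log2 fold change 1.70 ± 0.363, adjusted p = 0.0667), 225 and 219 CPM (GFP) and 297 and 316 CPM (ADAR) in NCI-H1650 (log2 fold change 0.47 ± 0.102, adjusted p = 0.00119) and 273 and 235 CPM (GFP) and 355 and 410.0 CPM (ADAR) in NCI-H196 (log2 fold change 0.53 ± 0.106, adjusted p = 2.06e-05). The groups did not overlap, although the GFP sg2 value in NCI-H196 rests on few reads. In A549 with IFN-β it stood at 176 and 201 CPM in GFP and 216 and 230.1 CPM in ADAR libraries (log2 fold change 0.24 ± 0.0986, adjusted p = 0.0921). The gene overlaps *S100PBP* by 1265 bases on the opposite strand, and *S100PBP* had 15.6% as many reads summed over all 20 libraries.

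*AARS* (alanine) and *MARS* (methionine) rose in NCI-H1650, NCI-H196 and A549 with IFN-β, with log2 fold changes of 0.45, 0.41 and 0.38 for *AARS* and 0.37, 0.53 and 0.28 for *MARS*, whose call in A549 was kept by 5 of 14 alternative analyses. *MARS* shares 982 bases with *DDIT3*, a stress factor gene on the opposite strand that rose strongly. Summed over all 20 libraries, *DDIT3* had 5.53% as many reads. The share in the ADAR libraries alone is not given here. How the counting treated strand is not given in the sources used here. *GARS* (glycine) and *SARS* (serine) rose in A549 with IFN-β (log2 fold changes 0.45 ± 0.0981 and 0.35 ± 0.108), and *IARS* (isoleucine) and *WARS* (tryptophan) in NCI-H196 (0.29 ± 0.107 and 0.41 ± 0.11). *TARS* (threonine) passed in none of the 4 settings, with log2 fold changes of 0.68 (HCC366), 0.25 (NCI-H1650), 0.27 (NCI-H196) and 0.22 (A549 with IFN-β). *EPRS* (glutamate and proline), *LARS* (leucine) and *NARS* (asparagine) did not pass either, and their log2 fold changes ranged from -0.42 for *EPRS* in HCC366 to 0.16 for *NARS* in the same line. Of the synthetase genes with the promoter element printed above, *AARS* passed in 3 settings and *GARS* and *IARS* in 1 each. *CARS*, with no match in its window, passed in 3.

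Of a list of 8 other ATF4 and stress regulator genes, 4 rose in HCC366, 7 in NCI-H196, 6 in NCI-H1650 and 6 in A549 with IFN-β, and none passed in A549 with vehicle. Their median log2 fold change was 3.05 in HCC366, 0.84 in NCI-H196, 0.71 in NCI-H1650, 0.73 in A549 with IFN-β and 0.07 in A549 with vehicle. *ATF3* and *PPP1R15A*, a transcription factor and the stress-induced subunit of the eIF2α phosphatase, had log2 fold changes of 4.15 and 4.12 in HCC366 and 4.57 and 2.99 in A549 with IFN-β. *ATF4* mRNA itself rose in NCI-H196 (log2 fold change 0.36 ± 0.106, adjusted p = 0.00776), while its log2 fold change was 0.83 ± 0.347 (HCC366), 0.23 ± 0.1 (NCI-H1650) and 0.16 ± 0.0948 (A549 with IFN-β), with adjusted p values of 0.255, 0.158 and 0.273. The regulators among the members had median log2 fold changes of 1.64, 0.44, 0.80 and 0.23 in the order HCC366, NCI-H1650, NCI-H196 and IFN-β-treated A549, against 2.69, 0.66, 0.78 and 0.85 for the cysteine and glutathione genes, 0.76, 0.30, 0.35 and 0.16 for the asparagine, proline, alanine and aspartate enzymes, 0.93, 0.19, 0.29 and 0.09 for the serine, glycine and folate enzymes, 0.40, 0.14, 0.31 and 0.22 for the transporters and 0.82, 0.19, 0.28 and 0.23 for the synthetases. In HCC366 the cysteine and glutathione median rests on 2 of 3 genes, *CHAC1* and *CBS*, and the regulator median on 4 of 7. *CHAC1* and *CBS* were low in the GFP libraries and could pass the filter on low counts through the ADAR libraries, where they were higher. Their median there is therefore not to be ranked against the other branches.

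Related genes outside the 40 were read as lists too. For comparison, 1.2% of all genes rose and 0.0449% fell in HCC366, and 6.18 and 2.42% in NCI-H1650. The shares were 10.3 and 7.5% in NCI-H196 and 10.8 and 6.19% in A549 with IFN-β. Of 8 other cytosolic synthetase genes none rose after ADAR KO in any line. *FARSB*, a phenylalanine synthetase subunit, fell in NCI-H1650 (log2 fold change -0.39) and NCI-H196 (-0.62), where *RARS* (arginine) fell too (-0.49), and *FARSA* fell in A549 with IFN-β (-0.31). Of 17 mitochondrial synthetase genes, *IARS2* fell in NCI-H1650 (-0.43) and NCI-H196 (-0.42), and *YARS2* rose in A549 with IFN-β (0.39). Of 16 other amino acid transporter genes, 11 were tested in HCC366, NCI-H196 and A549 with IFN-β and 9 in NCI-H1650. The glutamate importer *SLC1A3* rose in NCI-H1650 (0.68) and NCI-H196 (0.51). Its log2 fold change in HCC366 was 3.98, but its GFP libraries there held 0 and 4 reads. It could pass the filter on low counts through the ADAR libraries, where it was higher. Its call in HCC366 is therefore not to be read as a result. *SLC7A2*, a cationic amino acid importer, rose in HCC366 (2.02). In A549 with IFN-β *SLC7A6* rose (0.52) and *SLC1A1* fell (-1.31). Of 20 other amino acid and folate enzyme genes, 18 were tested in NCI-H196, where 1 rose and 4 fell. In A549 with IFN-β 19 were tested, of which 2 rose and 4 fell. In NCI-H1650 1 of 19 fell, and in HCC366 none of 16 passed. Among them the cytosolic *SHMT1* fell in NCI-H196 (-0.45), where the mitochondrial *SHMT2* rose.

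**Figure D3:**
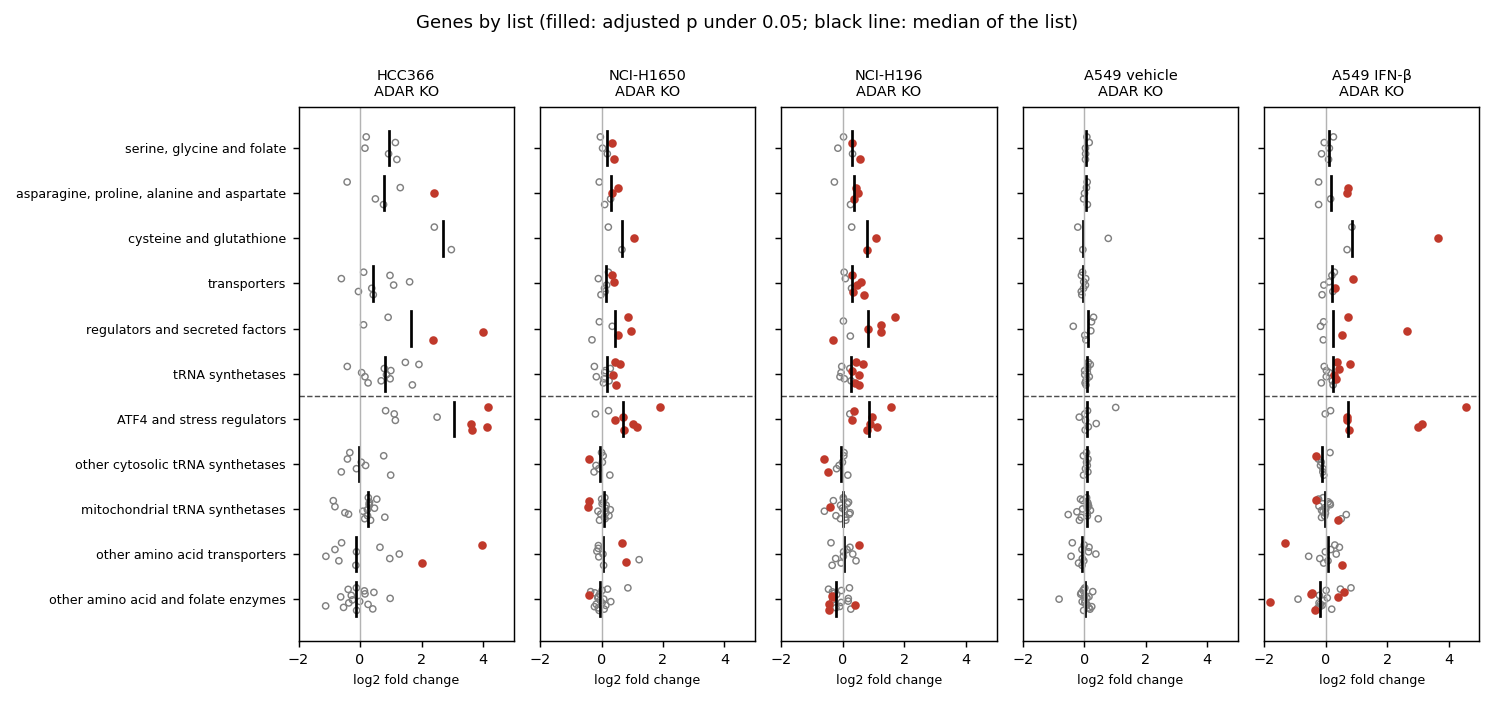
Log2 fold changes after ADAR KO (horizontal axis) for each gene of the 6 member branches (above the dashed line) and 5 lists of related genes (below it) in the 5 ADAR KO comparisons. Filled red circles have an adjusted p under 0.05, open circles do not, and black lines are list medians, which reach 3.05 for the ATF4 and stress regulators in HCC366.

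The response to IFN-β alone was read in the control cells. In A549 cells with GFP sgRNAs 3 of 39 members rose and 2 fell, against 4.39% of all genes that rose and 1.31% that fell. *DDIT4* rose from 65.1 and 56.2 to 99.2 and 115 CPM (log2 fold change 0.83 ± 0.118, adjusted p = 6.02e-06) and the glycine importer *SLC6A9* from 9.10 and 11.8 to 18.6 and 19.6 CPM (log2 fold change 0.84 ± 0.192, adjusted p = 0.00395). *WARS*, whose promoter holds both interferon motifs printed above, rose from 125 and 118 to 179.9 and 169 CPM (log2 fold change 0.52 ± 0.102, adjusted p = 0.000614). *SLC7A11* fell from 473 and 507 to 372 and 323 CPM (log2 fold change -0.49 ± 0.0977, adjusted p = 0.000722) and *SLC1A4* from 26.4 and 30.7 to 19.3 and 19.4 CPM (log2 fold change -0.57 ± 0.155, adjusted p = 0.0206). In each of these the libraries with IFN-β lay apart from those with vehicle, and 2 members passed without the GFP sg2 library with vehicle. The epithelial markers *CDH1* (log2 fold change 0.68 ± 0.166, adjusted p = 0.00784) and *KRT8* (log2 fold change 0.50 ± 0.109, adjusted p = 0.0022) rose in the same cells, and their part in these results was not tested. *SESN2*, *ASNS* and *CHAC1* were not called, with log2 fold changes of -0.06 ± 0.221, -0.03 ± 0.119 and 0.57 ± 0.442.

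With ADAR sgRNAs, IFN-β changed 17 of 39 members, 14 higher and 3 lower, against 15.5% of all genes that rose and 9.04% that fell. This comparison and that of ADAR KO under IFN-β share the ADAR libraries with IFN-β. The count was 11 without ADAR sg1 with vehicle and 10 without ADAR sg2 with IFN-β. *CDH1* rose here as well (log2 fold change 0.66 ± 0.179, adjusted p = 0.00644). The members that rose were *ASNS*, *GOT1*, *CHAC1*, *SLC38A2*, *SLC6A9*, *SESN2*, *DDIT4*, *STC2*, *AARS*, *CARS*, *GARS*, *MARS*, *TARS* and *WARS*, from 0.28 (*TARS*) to 3.43 (*CHAC1*). Those that fell were *PYCR1* (log2 fold change -0.53 ± 0.115, adjusted p = 0.000801), *EIF4EBP1* (-0.43 ± 0.12) and *ALDH18A1* (-0.39 ± 0.103), so that both proline enzymes were lower. *WARS* had 116 and 131 CPM with vehicle and 159 and 157 CPM with IFN-β (log2 fold change 0.35 ± 0.102, adjusted p = 0.0105), and *SLC6A9* had 10.7 and 11.1 CPM with vehicle and 19.4 and 17.3 CPM with IFN-β (log2 fold change 0.75 ± 0.196, adjusted p = 0.00522). For these genes the response to IFN-β did not differ detectably between targets: the interaction of ADAR KO and IFN-β was -0.17 ± 0.144 for *WARS* and -0.10 ± 0.275 for *SLC6A9*.

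**Figure D4:**
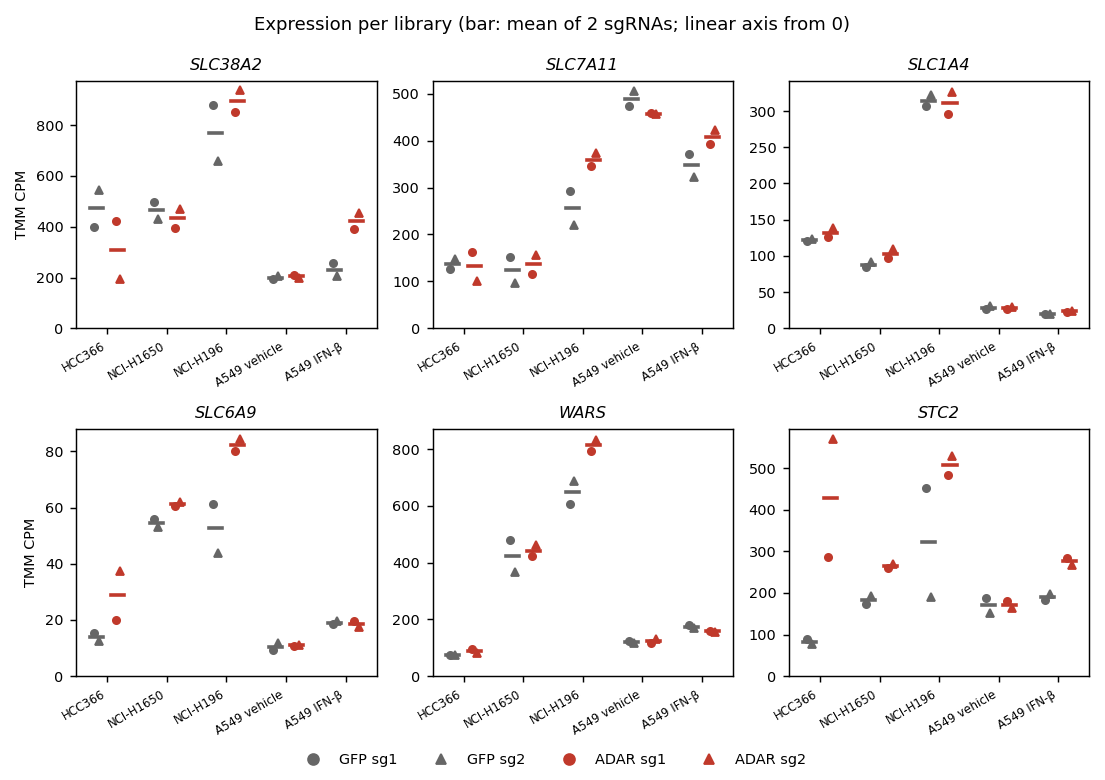
Expression of 6 members in every library (TMM CPM, linear axis from 0), with gray GFP and red ADAR libraries, circles for sg1, triangles for sg2 and bars for the mean of the 2 libraries. In A549 cells *WARS* and *SLC6A9* are higher with IFN-β for both targets, whereas *SLC38A2* reaches 391 and 454 CPM in the ADAR libraries with IFN-β alone.

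The interaction term asks whether ADAR KO had another effect with IFN-β than with vehicle. It passed for 7 of 39 members, all in the direction of a larger effect with IFN-β, which 4.07% of all genes shared, while 0.977% of all genes went the other way. These were *CHAC1* (log2 difference 2.86 ± 0.583, adjusted p = 0.00223), *SESN2* (2.44 ± 0.299, adjusted p = 2.11e-06), *SLC38A2* (0.83 ± 0.153, adjusted p = 0.000762), *GOT1* (0.68 ± 0.176, adjusted p = 0.0189), *ASNS* (0.64 ± 0.167, adjusted p = 0.0212), *CARS* (0.60 ± 0.16, adjusted p = 0.0253) and *STC2* (0.52 ± 0.149, adjusted p = 0.0366). *CHAC1*, *SESN2* and *SLC38A2* kept the call whichever single library was left out, whereas the other 4 lost it without A549 ADAR sg1 with vehicle and without A549 ADAR sg2 with IFN-β, and 3 of these 4 lost it without A549 GFP sg1 with vehicle. Members of the serine, glycine and folate branch had interaction terms between -0.21 and 0.17, and none of them passed. *DDIT4*, which rose with IFN-β and with ADAR KO under IFN-β, had an interaction of 0.42 ± 0.166 (adjusted p = 0.152).

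Levels of different members were compared in the GFP libraries as CPM per kb of transcript. *SLC7A5* and *SLC3A2* led in A549 (819 ± 11.4 and 557 ± 0.337, SD, n = 2) and HCC366 (452 ± 88.6 and 304 ± 48.5). In NCI-H1650 these levels were 269 ± 62.6 and 279.7 ± 21.5. In NCI-H196 *SLC3A2* was highest (281 ± 114), and *WARS* (193 ± 10.1) and *TARS* (179.9 ± 49.6) came next, within their spread of each other. Among the genes that rose most, *CHAC1* had levels per kb of 0.88 ± 0.242 in A549 and 2.67 ± 0.455 in HCC366 but 16.2 ± 2.44 in NCI-H1650 and 12.3 ± 7.69 in NCI-H196. *SESN2* had 2.87 ± 0.21, 6.14 ± 1.25, 19.4 ± 3.42 and 29.8 ± 12.3 in the same lines, so that A549 was lowest for both and HCC366 next. These levels, scaled by TMM over all 20 libraries, were not tested between lines.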

How the data were processed

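RNA sequencing libraries were made from rRNA-depleted RNA with a directional kit and sequenced as paired-end reads. The authors aligned reads to hg19 with STAR and deposited raw HTSeq read counts per Ensembl gene for 20 libraries. Versions, annotation release and the strand setting of the counting are not given in the sources used here. Alignments outside genes (not unique, ambiguous, no feature) were left out of library sizes; not unique alignments were 85.6% in HCC366 ADAR sg2.

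Identifiers were paired with symbols and GRCh37 positions through GENCODE v44lift37, which matched 55727 of 58233 genes. Counts were scaled by TMM, filtered by filterByExpr and fitted with edgeR 4.0.16 (R 4.3.3), with glmQLFit and glmQLFTest for each cell line, for all 8 A549 libraries together and for the 12 libraries of the ADAR1-dependent lines with the line as a covariate. The p values were adjusted by Benjamini-Hochberg over all genes of a fit and called under 0.05. Fold changes carry edgeR's default prior count. Levels per kb used the canonical transcript, or the longest one. All fits were tested on simulated counts. No 2 libraries were identical, and the counts of every pair of sgRNAs differed by more than sampling noise (chi-square per degree of freedom 1.34 to 17.5). Same-numbered libraries did not deviate together (correlations -0.253 to 0.0368), so no pairing was used. A count of 0 was taken to allow 3 reads, counting error only.

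The 40 members, the 5 companion lists and the tests were chosen with earlier results of these data known. Values in every library are given for *ASNS* and the 2 members per branch with the largest mean absolute log2 fold change over the 4 ADAR KO comparisons other than A549 with vehicle. Library values of further members, such as *SLC38A2*, *WARS* and *CTH*, were added after their values were seen. At most 2 called genes are named per companion list and comparison, those with the largest fold change. Some genes of the companion and marker lists are not reported here. Alternatives were DESeq2 1.42.0 and its size factors, no filter on low counts, offsets for GC content and length, a replicate block, 1 fit of all 20 libraries and leaving out each library in turn.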

Additional observations from a re-analysis of the deposited data

Results flagged for a closer look

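The effect of ADAR KO in A549 cells differed between IFN-β and vehicle by the interaction test for 7 members. The log2 difference was 2.86 for *CHAC1*, 2.44 for *SESN2*, 0.83 for *SLC38A2*, 0.68 for *GOT1*, 0.64 for *ASNS*, 0.60 for *CARS* and 0.52 for *STC2*. Among the ADAR1-dependent lines the effect differed for *SESN2* (edgeR, adjusted p = 0.00839), *GOT1* (0.0184) and *STC2* (0.042). No group has 4 or more libraries, so single libraries were not flagged here as outliers of their group. The 2 libraries that stood apart in depth or alignment are described above.

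For 8 members both ADAR libraries lay on one side of both GFP libraries in A549 cells and on the opposite side in another line. These differences were not tested. The share of all genes with such opposite orders was not counted, so the 8 cannot be set against other genes. In A549 with vehicle, *SLC1A5* (-0.10) was opposite to all 3 ADAR1-dependent lines, *SLC7A11* (-0.10) and *SLC7A5* (-0.0828) to NCI-H196, *NARS* (0.16) to NCI-H1650 and NCI-H196, and *ALDH18A1* (0.0932) to HCC366. In A549 with IFN-β, *PYCR1* (-0.23) and *WARS* (-0.14) were opposite to HCC366 and NCI-H196, and *MTHFD2* (0.25) to NCI-H1650. None of these 8 was called after ADAR KO in A549 cells.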

How the results depend on the processing

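No called member changed direction under any alternative: over all alternatives 967 results of called members kept the call and 296 lost it, not counting members without an adjusted p in DESeq2. A549 with vehicle had 0 called members in every alternative. In HCC366 (3 members) DESeq2 called 9, no filter 10, the GC content and length offsets 17 and all 20 libraries in one fit 22, where 2.2, 3.05, 9.79 and 19% of all genes passed against 1.25%, and leaving out single libraries gave 0 to 27. In NCI-H196 (23) DESeq2 called 1, the GC and length offsets 14 and the fit of all libraries 1, and single libraries 2 to 26. The fit of all libraries called 1 in NCI-H1650 (14), 6 for ADAR KO with IFN-β (13), 2 and 8 for IFN-β with GFP (5) and ADAR sgRNAs (17), 2 for the interaction (7), 24 over the 3 lines (14) and 5 for their difference (3). Leaving out single libraries gave 4 to 12, 8 to 15, 2 to 6, 10 to 18, 3 to 8, 7 to 20 and 0 to 21 for these. The difference among lines also had 5 members without the filter and 10 with the GC and length offsets. With those offsets 13 members rose and 6 fell after IFN-β with ADAR sgRNAs, against 14 and 3. The cause of these shifts was not tested. In HCC366, NCI-H1650, NCI-H196 and A549 with IFN-β, the lowest member count on leaving out a library came with a smaller share of all genes as well.

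The sgRNA number as a replicate block left 8 members in HCC366, where crossing the numbers, an alternative chosen after seeing the data, left 12, and 3 in NCI-H196 (*CARS*, *DDIT4* and *SESN2*). It moved no other count by over 1.5 times. The counts called over all genes in NCI-H196 were 2513, and 11 by DESeq2 and 115 with the block. Depth limits NCI-H196 most, where 1 read in GFP sg2 equals 14.7 CPM. Counting error exceeds 1 read for a value that rests on several reads. Differences just above 14.7 CPM in that library were therefore not detectable either. The count of members with the library left out that gave the lowest number was 4 in NCI-H1650 (GFP sg2), 2 in NCI-H196 (ADAR sg2) and 8 in A549 with IFN-β (ADAR sg2).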
